A study of Mus musculus with 6 samples.

Results

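Untreated brain microvascular endothelial cells (BMVECs) of the mouse are described here at baseline, from 3 RNA sequencing libraries. Every gene that the authors' table labels protein-coding in its biotype column was taken, which gave 22046 of 54532 genes in the table. The 3 libraries, named A0, B0 and D0 by the submitters and called untreated replicates 1 to 3 here, are 3 of 6 libraries in the series, and no library of treated cells enters any value. The other 3 libraries came from cells given a processed mouse IL-36β for 24 h at 100 ng/ml.

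All libraries were of primary cells from C57BL/6J mice without a genetic change (wild type in the labels), and no transgene, Cre driver or clone was involved. Brains freed of olfactory bulb, cerebellum and meninges were dispersed, myelin was removed by spinning in albumin, and vessel pieces were digested with collagenase and dispase. The vessel cells grew in an endothelial growth medium on dishes coated with collagen IV and fibronectin, under puromycin until day 3, to confluence. The labels give no animal age and leave unsaid whether each library stands for its own animals or culture, so the spread given below is between libraries and may be technical. No vehicle and no sampling time are named for the untreated cells.

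Endothelial cells line every blood vessel. In the brain they seal the capillary wall with tight junctions, hold back vesicle traffic, carry glucose, amino acids and lipids inward through named transporters, and pump drugs back to the blood with ATP-driven efflux pumps. Wnt signals from neighbouring brain cells and contact with pericytes keep this barrier state in the animal, and cultured brain endothelium is known to lose part of it.

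Levels are FPKM, reads per kilobase of gene model on a library scale set by the authors, so levels of different genes can be set side by side per unit of length. A gene was counted as detected where its FPKM was at least 1 in each of the 3 libraries. Total reads assigned to genes were 15790499, 19544689 and 15439602 in replicates 1, 2 and 3, and 99.0% of them fell on protein-coding genes in each. At a gene length of 1 kb, 1 FPKM stood for 16.2, 20.3 and 15.4 reads, and 0 reads allowed up to 0.185, 0.148 and 0.195 FPKM (3 reads, counting error only). Untreated replicate 3 stood apart from replicates 1 and 2. Its reads differed from theirs by a chi-square per degree of freedom of 35.1 and 30.7 over genes, against 11.3 between replicates 1 and 2. Across the 9853 detected genes, on log2(FPKM + 0.5), Pearson's r was 0.993 between replicates 1 and 2, 0.980 between 1 and 3 and 0.982 between 2 and 3; genes are not independent replicates. Of the 10206 protein-coding genes with a mean of at least 1 FPKM, replicate 3 was the lowest library in 3645 and the highest in 4270. For that reason levels are given library by library, always in the order of replicates 1, 2 and 3, and means are ± SD over the 3 libraries unless said otherwise.

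Of the 22046 protein-coding genes, 9853 (44.7%) were detected, 5948 had reads without reaching the threshold and 6245 had 0 reads in all 3 libraries. Mean FPKM was at least 10 in 4419 genes, at least 100 in 398 and at least 1000 in 17. The 100 most abundant protein-coding genes held 28.6%, 28.9% and 28.6% of the summed FPKM. The median gene had a mean of 0.558 FPKM. The percent of detected members given for each list below is to be read beside the 44.7% of all protein-coding genes.

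The most abundant nuclear transcripts were those of iron storage, the cytoskeleton and the extracellular matrix. Fth1, the heavy chain of the iron store ferritin, led with 5163, 5507 and 4363 FPKM. Tmsb4x, which encodes the actin-binding peptide thymosin beta 4, had 3067, 3134 and 3594 FPKM. The ranges of Fth1 and Tmsb4x did not overlap, so their order held in each library. Fn1, the matrix protein fibronectin, had 2027, 1656 and 2239 FPKM, and Ctgf, a matricellular growth factor, 1294, 1487 and 1954 FPKM. Both were highest in replicate 3. B2m, the light chain of class I antigen-presenting molecules, had 1638, 1712 and 1069.9 FPKM and was lowest in replicate 3. Thbs1, the matricellular inhibitor of vessel growth thrombospondin 1, had 1463, 1444 and 1391 FPKM, inside the range of B2m.

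Apln, which encodes the peptide ligand apelin, stood at rank 9 of all protein-coding genes by mean FPKM with 1526, 1377 and 1252 FPKM. The next places by mean went to Rplp1 (ribosome, mean 1344 ± 177 FPKM), Eef1a1 (elongation factor, 1335 ± 275), Hspb1 (a small heat shock protein, 1309.7 ± 245), Actb (beta-actin, 1281 ± 268), Cav1 (the caveola coat protein, 1218 ± 69.4), S100a11 (a calcium-binding protein, 1206 ± 127), Actg1 (gamma-actin, 1113 ± 279) and Sparc (a collagen-binding matrix protein, 1055 ± 49.5). The 3 libraries of Sparc lay below those of Rplp1, Hspb1, Cav1 and S100a11 and within those of Actg1. Ly6a, the surface antigen Sca-1, had 1156, 1025 and 785 FPKM. Cdh5, which encodes VE-cadherin, the adhesion molecule of endothelial junctions, had 1069, 900.3 and 901 FPKM. Angpt2, the Tek ligand that endothelial cells themselves secrete, had 1076, 833 and 902 FPKM, and Tpm4, a tropomyosin, had 832, 846 and 1056 FPKM. Ranges of Ly6a, Cdh5, Angpt2 and Tpm4 overlapped, so their order among themselves was not beyond the spread between libraries. Of the nuclear genes named so far, Tmsb4x, Fn1, Ctgf, Rplp1, Eef1a1, Hspb1, Actb, Cav1, S100a11, Actg1 and Tpm4 were highest in replicate 3. Fth1, B2m, Thbs1, Apln, Sparc, Ly6a, Cdh5 and Angpt2 were not. Replicate 3 was the highest library in 4270 of the 10206 genes with a mean of at least 1 FPKM.

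Genes of the mitochondrial genome are listed apart. mt-Co1, a subunit of cytochrome oxidase, had 4529, 4314 and 3180.4 FPKM, while mt-Co2, another subunit of the same complex, had 39.3, 37.2 and 17.97 and mt-Co3 19, 15.5 and 13.2 FPKM. Some mitochondrial genes have near-identical copies in the nuclear genome. How reads of such copies were counted is not known here, and their part in these differences between subunits was not tested. Reads on mitochondrial protein-coding genes made up 1.24%, 1.19% and 0.865% of the reads on all protein-coding genes.

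Endothelial markers were set beside the label of brain endothelium. The pan-endothelial list was drawn up with earlier results of these data known, so its share is a description and not an independent check. It holds genes of all vessels, which say nothing on the brain part of the label. Of 38 genes known from endothelium of all vessels 37 were detected (97.4%, against 44.7% of all protein-coding genes), with a median of 53.6 FPKM, and 19 of them were among the 1000 most abundant genes. Cdh5 (chromosome 8, 104101625 to 104144511, plus strand, GRCm38) was the highest, with a mean of 956 ± 97.1 FPKM (SD, n = 3) at rank 19 by mean. Pecam1, which encodes the junctional adhesion molecule CD31 (chromosome 11, 106654217 to 106750628, minus strand), had 433, 347 and 306 FPKM, a mean of 362 ± 64.5 at rank 80. Pecam1 was highest in replicate 1 and lowest in replicate 3. Adgrl4, an endothelial adhesion receptor, had 709, 603 and 551 FPKM, and Eng, the TGF-beta co-receptor endoglin, had 524, 569.9 and 636 FPKM. Emcn, the surface sialomucin endomucin, had 458, 488 and 453 FPKM and Esam, an endothelial cell adhesion molecule, 342, 330.1 and 344 FPKM. Emcn and Esam varied least of these 6 between libraries. Cd36, a fatty acid receptor of capillaries, was the list's member below the threshold, at 0.0343, 0.0413 and 0 FPKM.

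Tek, the angiopoietin receptor Tie2 (chromosome 4, 94739289 to 94874976, plus strand), was low beside the other identity genes, at 10.1, 8.36 and 11.3 FPKM and rank 4446. Its relative Tie1 had 105, 79.6 and 82.4 FPKM and was above Tek in every library. Angpt2 stood 937 ± 125 FPKM to 9.92 ± 1.47 for Tek as means over the 3 libraries. Kdr, the main VEGF receptor, had 26.6, 29.3 and 36.6 FPKM, and Flt1, the VEGF receptor that also acts as a decoy, had 21.8, 18.5 and 16.2 FPKM. In replicate 3 Kdr was highest and Flt1 lowest of the 3 libraries. Vwf, the clotting factor stored in endothelial granules, was at the low end of the list with 7.18, 5.81 and 4.76 FPKM.

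**Figure D1:**
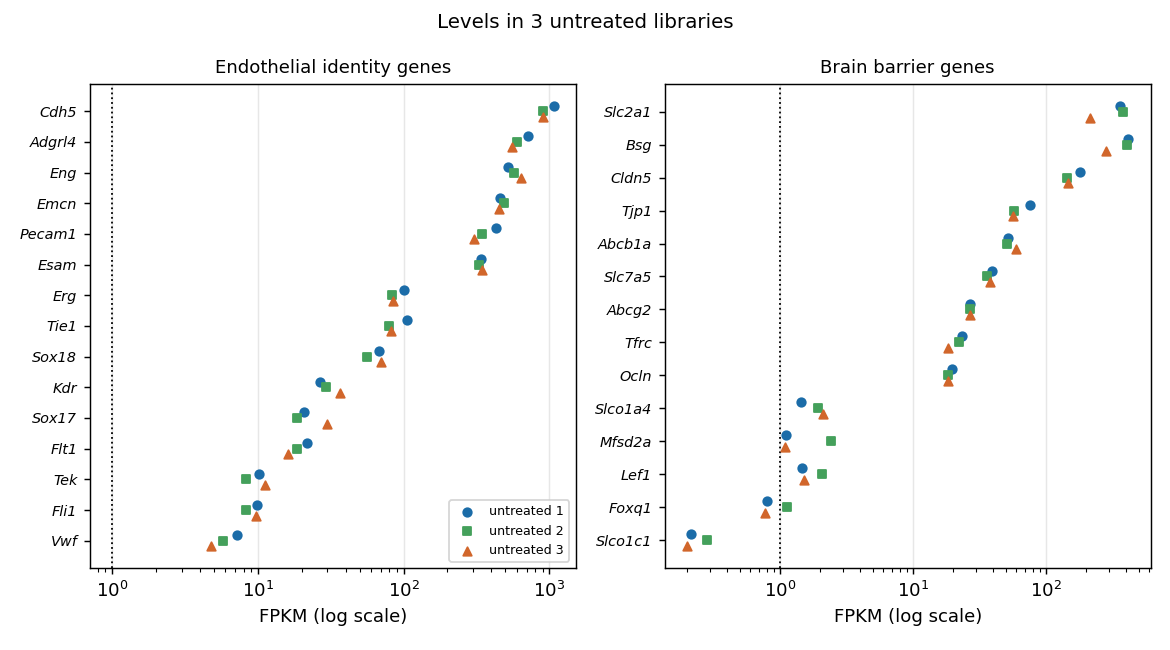
FPKM (log axis) of endothelial identity genes (left) and brain barrier genes (right), 1 point per untreated library, with a dotted line at 1 FPKM. The lowest Pecam1 library is at 306 FPKM, while Slco1c1 lies below 1 FPKM in each.

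Promoter sequence, the 250 bases before the annotated start, is shown for 5 genes that span the range of levels: Apln and Cldn5 as abundant endothelial genes, Flt1 and Tek as receptors of middle level, and Slco1a4 as a barrier transporter near the threshold. Sequences are from RefSeq (GRCm38.p6), read along the gene's strand. Capitals mark a GC box (GGGCGG, or CCGCCC on the other strand) or a TATA box (TATAAA, or TTTATA on the other strand); the motifs share no bases with each other.
Apln (chrX:48034854-48035103, minus strand): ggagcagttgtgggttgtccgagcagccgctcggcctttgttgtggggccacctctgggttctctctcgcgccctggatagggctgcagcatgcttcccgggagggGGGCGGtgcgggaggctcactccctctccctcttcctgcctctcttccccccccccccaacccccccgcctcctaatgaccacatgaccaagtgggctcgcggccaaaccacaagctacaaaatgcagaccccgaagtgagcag
Cldn5 (chr16:18776597-18776846, plus strand): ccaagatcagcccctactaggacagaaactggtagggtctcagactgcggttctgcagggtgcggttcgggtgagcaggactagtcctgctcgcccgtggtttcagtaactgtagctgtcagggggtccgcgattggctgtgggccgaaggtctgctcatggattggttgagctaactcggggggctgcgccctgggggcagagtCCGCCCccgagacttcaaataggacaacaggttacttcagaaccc
Flt1 (chr5:147726012-147726261, minus strand): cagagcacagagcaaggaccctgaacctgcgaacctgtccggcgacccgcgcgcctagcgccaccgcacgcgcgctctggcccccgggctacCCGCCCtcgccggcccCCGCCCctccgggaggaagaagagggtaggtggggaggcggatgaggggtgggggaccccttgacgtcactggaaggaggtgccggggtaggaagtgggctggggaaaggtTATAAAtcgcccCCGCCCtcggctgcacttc
Tek (chr4:94739039-94739288, plus strand): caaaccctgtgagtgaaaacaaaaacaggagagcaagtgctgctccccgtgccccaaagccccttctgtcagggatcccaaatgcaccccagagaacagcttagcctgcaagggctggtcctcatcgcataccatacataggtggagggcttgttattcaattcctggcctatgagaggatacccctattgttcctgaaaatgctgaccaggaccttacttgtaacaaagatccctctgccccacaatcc
Slco1a4 (chr6:141856221-141856470, minus strand): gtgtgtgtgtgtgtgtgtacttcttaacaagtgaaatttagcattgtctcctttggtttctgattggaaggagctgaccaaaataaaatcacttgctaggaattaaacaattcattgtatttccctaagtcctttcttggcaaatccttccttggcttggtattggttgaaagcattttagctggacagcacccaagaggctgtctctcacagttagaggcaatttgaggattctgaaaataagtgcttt

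Apln has 1 GC box that starts 144 bases before the gene's start, and Cldn5 has 1 that starts 45 bases before it. Flt1 has 3 GC boxes, the nearest 19 and the farthest 158 bases before the start, and a TATA box 31 bases before it. Neither set of letters is in the windows of Tek and Slco1a4. A match is only a match of letters.

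Over the whole table, 20120 RefSeq promoters of 16497 protein-coding genes could be searched in the same way, by symbol. A GC box was present in 44.1% of these promoters and a TATA box in 11.2%. Among promoters of detected genes the shares were 60.4% and 5.97%, and among genes with 0 reads they were 13.5% and 24.2%. Olfactory and vomeronasal receptor genes are part of the latter group, and without them the shares were 17.9% and 19.5%. By level, the GC box share went from 39.4% under 1 FPKM to 58.7% at 1 to 10, 62.0% at 10 to 100 and 62.4% at 100 FPKM or more, and the TATA box share from 9.77% to 6.09%, 5.75% and 9.33%. In the pan-endothelial list, 29 promoters of 21 genes were matched and 41.4% of them held a GC box, beside 44.1% of all promoters and 60.4% of those of detected genes. In the tight junction list 73.5% of 34 promoters did, and in the list of genes enriched in brain endothelium 57.1% of 42.

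**Figure D2:**
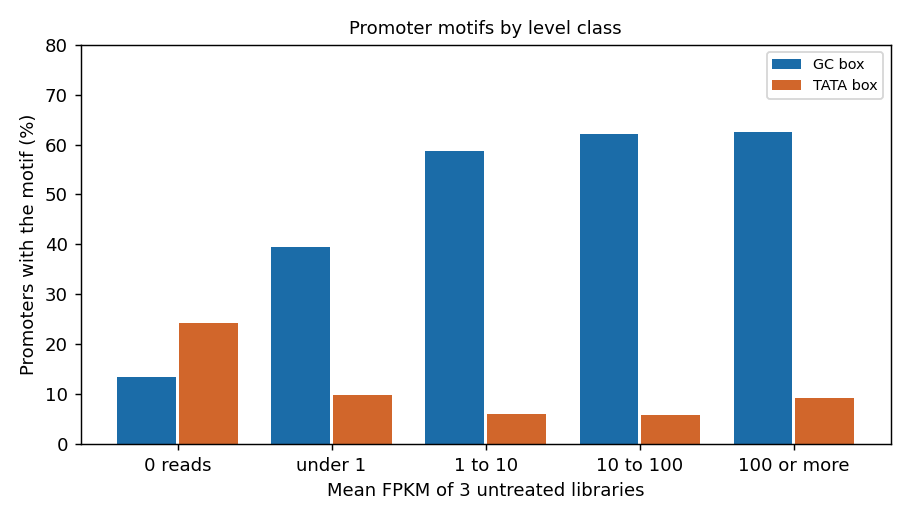
Percent of RefSeq promoters (250 bases before the start) that hold the letters of a GC box (blue) or a TATA box (orange) on either strand. Promoters are grouped by the mean FPKM of the gene in the 3 untreated libraries. Genes with 0 reads have the lowest GC box share, 13.5%, and the highest TATA box share, 24.2%.

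Tight junctions, the seal between neighbouring endothelial cells, were represented by 20 detected genes of 30 on the list (66.7%). Their tetraspan core was claudin 5. Cldn5 (chromosome 16, 18776847 to 18778262, plus strand) had 181, 143 and 146 FPKM, a mean of 157 ± 20.9 (SD, n = 3) at rank 243. Ocln, which encodes occludin, had 19.6, 18.3 and 18.4 FPKM, and Tjp1, the scaffold ZO-1 beneath both, had 75.3, 57.8 and 56.5 FPKM. Cldn5 and Tjp1 were highest in replicate 1, and Ocln differed little. F11r, the junctional adhesion molecule A, had 104, 100.0 and 95.8 FPKM, and Cgnl1, the scaffold paracingulin, 96.8, 89.3 and 88.5 FPKM. Marveld2, which encodes tricellulin, and Lsr, its recruiter at corners where 3 cells meet, had means of 1.25 ± 0.0514 and 1.58 ± 0.42 FPKM.

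The claudin family was looked at as a whole after its values were seen. Of 23 claudin genes 4 were detected (17.4%) and 12 had 0 reads in all 3 libraries. After Cldn5 came Cldn1 with 21, 17.7 and 12.4 FPKM, Cldn12 with 14.4, 15.5 and 19.95 FPKM and Cldn6 with 3.68, 2.93 and 1.74 FPKM. The lowest Cldn5 library lay above the highest library of each other claudin. Cldn3 had 0.685, 0.353 and 0.207 FPKM, below the threshold in every library, and Cldn11, the claudin of myelin, had 0 reads.

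Adherens junction genes were detected in 18 of 20 cases (90%), with a median of 20.1 FPKM. Below Cdh5 and Pecam1, Ctnna1 (alpha-catenin) had 286, 254 and 248 FPKM, Ctnnb1 (beta-catenin) 158, 154 and 154 FPKM and Jup (plakoglobin) 76.7, 59.01 and 60.7 FPKM. The 3 catenins kept that order in each library. Pvr, a nectin-like adhesion molecule, had a mean of 54.3 ± 3.31 FPKM. Cdh2, the neuronal type cadherin that endothelium shares with pericytes, had 22.4, 28.3 and 18.1 FPKM, and Cdh1, the epithelial cadherin, 0.0404, 0 and 0 FPKM.

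Genes enriched in brain over other endothelium gave a mixed picture by level: 30 of 38 were detected (78.9%), with a median of 14.7 FPKM. Ly6a led the list. Bsg, the surface glycoprotein basigin that chaperones lactate carriers, had 417, 407 and 282 FPKM. Slc2a1 encodes GLUT1, through which the barrier takes up glucose, and had 359, 377 and 215 FPKM. Both were lowest in replicate 3, and without that library the means were 412 and 368 FPKM. Ly6c1, another Ly6 surface antigen, had 238, 234 and 224 FPKM, and Cxcl12, the chemokine SDF-1, 174, 146 and 143 FPKM.

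At the other end, several genes that mark the barrier in the animal were near or under the threshold. Mfsd2a, the carrier of omega-3 lipids that also restrains transcytosis, had 1.12, 2.44 and 1.098 FPKM. Slco1a4, an organic anion carrier, had 1.44, 1.95 and 2.12 FPKM, and Slco1c1, the carrier of thyroid hormone, had 0.214, 0.286 and 0.201 FPKM. Slco1c1 was below 1 in each library, and Mfsd2a was highest in replicate 2. Lef1, a nuclear partner of beta-catenin in Wnt signalling, had 1.46, 2.09 and 1.52 FPKM and Foxq1, a forkhead factor of brain endothelium, 0.801, 1.13 and 0.779 FPKM. Car4, a carbonic anhydrase of capillaries, had a mean of 0.126 ± 0.0556 FPKM, Slc22a8, an organic anion transporter, 0.0189 ± 0.0328 and Slc38a5, a glutamine carrier, 0.00916 ± 0.0159.

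Genes that mark segments of the vessel tree were present from each side. Of arterial genes 14 of 20 were detected (70%). Edn1, the vasoconstrictor endothelin 1, had 297, 326 and 438 FPKM, Tm4sf1, an endothelial tetraspan protein, 209.9, 189 and 227 FPKM, and Dll4, a Notch ligand, 108, 69.8 and 88.03 FPKM. Jag1, another Notch ligand, had a mean of 43.1 ± 5.55 FPKM and Efnb2, the arterial ephrin, 28.5 ± 6.07, while Gkn3 and Cytl1 had 0 reads. Of venous genes 12 of 17 were detected (70.6%), led by Tmem252 with 85, 75.1 and 58.4 FPKM. Nrp2, a co-receptor for VEGF and semaphorins, had 33.3, 35.7 and 61.2 FPKM, Flt4, the receptor VEGFR3, 45.9, 38.6 and 35.8 FPKM, and Nr2f2, the factor that specifies veins, 1.83, 2.11 and 2.23 FPKM. Arterial and venous genes in a bulk library can come from different cells or the same cells, which cannot be told apart here; nor can fewer cells of a type be told apart from less RNA per cell.

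Tip cell and angiogenic genes, known from sprouting vessels, were detected in 19 of 20 cases (95%). They had the highest median among the endothelial lists, 84.9 FPKM. After Apln and Angpt2, Pgf, the VEGF relative placental growth factor, had 861, 857 and 478 FPKM, and Adm, the dilator peptide adrenomedullin, had 687, 629 and 433 FPKM. Igfbp3, a binding protein of insulin-like growth factors, had 356, 258 and 247 FPKM. Replicate 3 was lowest in 11 of the 19 members with a mean of at least 1 FPKM, against 3645 of 10206 genes. Aplnr, the receptor of apelin, had 0 reads in all 3 libraries, so the ligand was among the 10 most abundant genes without a read of its known receptor. Kcne3, a potassium channel subunit, had 19.1, 14.3 and 2.49 FPKM and Esm1, a proteoglycan of tip cells, a mean of 16.2 ± 4.16 FPKM.

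Lymphatic and fenestrated vessel genes were mostly low, with 5 of 13 detected (38.5%). Plvap, the diaphragm protein of fenestrae and caveolae that the mature brain barrier lacks, had 12.5, 14.5 and 8.08 FPKM. Stab1, a scavenger receptor, had 28.3, 23.95 and 29.1 FPKM and Lyve1, a hyaluronan receptor of lymphatics, 7.21, 6.38 and 6.84 FPKM. Prox1, the factor that defines lymphatic endothelium, was at 0.0807, 0.0883 and 0.0465 FPKM and Ccl21a at 0 reads.

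Nutrient and ion carriers were detected in 27 of 36 cases (75%). Besides Slc2a1, the chains of the large amino acid carrier of the barrier had 82.6, 95.6 and 103 FPKM for Slc3a2 and 39.4, 36.01 and 38.3 FPKM for Slc7a5. Slc3a2 was above Slc7a5 in every library. Slc38a2, a sodium-coupled amino acid carrier, had a mean of 74.9 ± 7.79 FPKM, and Slc25a5, the mitochondrial ADP/ATP exchanger, 84.8 ± 13.4. Slc16a1, the lactate carrier MCT1, had 8.83, 9.51 and 10.3 FPKM, and Slc2a3, the neuronal glucose transporter, 0.06798, 0.259 and 0 FPKM. Slc16a1 was thus above and Slc2a3 below 1 FPKM in each library. Slc1a3 and Aqp4, a glutamate carrier and a water channel of astrocytes, had 0 reads. In the solute carrier family as a whole, a family chosen after its values were seen, 148 of 340 genes were detected (43.5%), a share near that of all protein-coding genes.

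Efflux pumps and organic anion carriers were detected in 12 of 19 cases (63.2%). Abcb1a, the drug pump P-glycoprotein, had 52.3, 51.2 and 59.1 FPKM, a mean of 54.2 ± 4.27 (SD, n = 3). Abcg2, the breast cancer resistance protein pump, had 26.8, 27.04 and 27 FPKM. Abcb1a was above Abcg2 in every library, and both were stable between libraries. Abcb1b, a close copy of Abcb1a in the mouse with which it can share reads, had 17.4, 17.8 and 12.8 FPKM. Abcc4, a pump of organic anions and nucleotides, had 17.2, 15.5 and 18.3 FPKM, Abcg1, a cholesterol exporter, 24.8, 18.1 and 10.3 FPKM, and Slco3a1 a mean of 12.9 ± 0.356 FPKM. Abcg1 was lowest in replicate 3.

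Caveola and transcytosis genes were detected in 24 of 28 cases (85.7%), with a median of 19.8 FPKM. Cav1 was at rank 14, with 1144, 1229.8 and 1282 FPKM. Its coat partner Cavin1 had 277, 266 and 283 FPKM. Cav2, which joins Cav1 in the coat, had 227, 210.3 and 218 FPKM. These 3 genes differed little between libraries and kept their order in each, and Cav3, the muscle caveolin, had 0 reads. Ehd2, which restrains caveolae at the surface, had 103, 100.1 and 113 FPKM and Cltc, the clathrin heavy chain, 79.7, 75.2 and 80.8 FPKM. Cavin3 had a mean of 67.3 ± 16.3 FPKM. Tfrc, the transferrin receptor that carries iron across the barrier, had 23.4, 22.3 and 18.3 FPKM, Insr, the insulin receptor, a mean of 9.88 ± 1.11 and Lrp1, a large lipoprotein receptor, 1.05, 0.816 and 1.18 FPKM.

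Receptor genes were listed in 10 families, and 131 of 284 receptors and partners were detected (46.1%), a share close to the 44.7% of all protein-coding genes. The receptor of IL-36 is a pair of chains. Il1rl2, the chain that binds IL-36 (chromosome 1, 40324610 to 40367562, plus strand), had 1.05, 1.11 and 0.6301 FPKM, from 116, 153 and 66 reads, and was above 1 FPKM in replicates 1 and 2 only. Its mean was 0.929 ± 0.261 FPKM (SD, n = 3) with the 3 libraries and 1.08 FPKM without replicate 3, at rank 10310. Il1rap, the signalling chain that IL-1 and IL-33 receptors share, had 6.28, 5.81 and 5.86 FPKM (rank 6091) and was above Il1rl2 in every library.

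On the whole list of the IL-1 and IL-36 family and its signalling, 10 of 27 genes were detected (37.0%), Il1rap among them. Il1r1, the IL-1 receptor, had 16.1, 17.3 and 13.2 FPKM, above Il1rap in every library. Of the adaptor and kinases behind these receptors, Irak1 had 15.3, 14.2 and 15.1 FPKM, Irak2 13.8, 12.97 and 12.96 FPKM and Myd88 8.56, 9.26 and 7.62 FPKM. Sigirr, an inhibitory receptor of the family, had 11.8, 10.98 and 11.5 FPKM, and Irak3, an inhibitory kinase, 7.52, 8.27 and 7.15 FPKM. Ligands of the family were low in these cells. Il1a had a mean of 0.157 ± 0.03702 FPKM, Il33 0.0921 ± 0.0618, Il18 1.08 ± 0.444, and Il1b had 0 reads. Il1rl1, the IL-33 receptor, was at 0, 0.00716 and 0 FPKM and the decoy Il1r2 at 0.161, 0.129 and 0.409 FPKM.

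Cytokine and interferon receptors were detected in 19 of 30 cases (63.3%). Ifngr1, the interferon gamma receptor, had 44.1, 39.2 and 31.2 FPKM, and Il6st, the shared signalling chain gp130, had 34.6, 33.3 and 37.8 FPKM. Il6ra, the chain that binds IL-6, had 2.49, 2.75 and 2.498 FPKM, below Il6st in every library. Il4ra had a mean of 30.01 ± 3.42 FPKM, Il3ra 29.4 ± 2.09, Il2rg, the common gamma chain, 25.6 ± 3.95 and Ifnar1, of the type I interferon receptor, 23.9 ± 2.71. Ifnlr1, of the interferon lambda receptor, was at 0.0396 ± 0.0221 FPKM.

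Death and TNF receptors were detected in 11 of 20 cases (55%). Tnfrsf12a, the TWEAK receptor Fn14, had 170.1, 166 and 181 FPKM. Tnfrsf1a, the widely expressed TNF receptor, had 59.95, 55.5 and 49.7 FPKM and Tnfrsf1b, its relative, 19.3, 17.9 and 19.5 FPKM. In order, Tnfrsf12a was above Tnfrsf1a, and Tnfrsf1a above Tnfrsf1b, in every library. Ltbr, the lymphotoxin receptor, had a mean of 40.8 ± 5.095 FPKM, Tnfrsf10b, the TRAIL receptor, 39.1 ± 3.03 and Eda2r 23.97 ± 3.87.

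Of 15 Toll-like receptor genes and partners 5 were detected (33.3%). Tlr4, which senses lipopolysaccharide, had 24.2, 22.5 and 22.6 FPKM and its partner Ly96 15.02, 12.04 and 13.8 FPKM. Tlr3, which senses double-stranded RNA, had 11.7, 9.87 and 6.92 FPKM, Tlr2, for bacterial lipoproteins, 1.74, 1.98 and 1.21 FPKM and Cd14 a mean of 3.88 ± 0.721 FPKM. Tlr1, Tlr7, Tlr8, Tlr9, Tlr11 and Tlr12 had 0 reads. Of 24 chemokine receptors 3 were detected (12.5%). Cxcr4, the signalling receptor of Cxcl12, had 104, 66.02 and 61.2 FPKM. Ackr3, the scavenging receptor of Cxcl12, had 51.5, 27.7 and 34.9 FPKM and Ccrl2 4.01, 2.91 and 2.25 FPKM. Both Cxcl12 receptors were highest in replicate 1, Cxcr4 was lowest in replicate 3 and Ackr3 in replicate 2.

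Receptor tyrosine kinases were detected in 22 of 50 cases (44%), near the share of all protein-coding genes. Mertk, a receptor for dying-cell ligands, was the highest with 151, 135 and 114 FPKM, and Epha2, an ephrin receptor, had 111, 103 and 107 FPKM. Their order held in each library. Axl, a relative of Mertk, had a mean of 25.1 ± 4.31 FPKM, Fgfr1 22.7 ± 3.398 and Igf1r 14.5 ± 1.52. Pdgfrb, whose ligand Pdgfb had 128, 108 and 147 FPKM, had 2.46, 2.97 and 2.46 FPKM. For VEGF receptors the order by mean was Flt4, Kdr and Flt1. Flt4 and Kdr overlapped between libraries, while every Kdr library lay above every Flt1 library.

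In BMP and TGF-beta signalling, 10 of 14 receptor genes were detected (71.4%). Acvrl1, the endothelial receptor ALK1 that pairs with endoglin, had 305, 280.4 and 304 FPKM, and Tgfbr2, the ligand-binding TGF-beta receptor, 107, 86.3 and 82.7 FPKM. Tgfbr1, its signalling partner, had 5.91, 5.704 and 6.53 FPKM, below Acvrl1 in every library. Acvr1 had a mean of 18.5 ± 0.148 FPKM and Bmpr2 10.9 ± 1.104. Among Notch and Wnt receptors 16 of 24 were detected (66.7%). Notch4, the endothelial Notch, had 94.2, 77.03 and 85.9 FPKM and Notch1 14.2, 10.6 and 14.3 FPKM. Fzd4, the receptor of norrin, had 33.6, 29.5 and 35.3 FPKM, Adgra2, the GPR124 co-receptor for Wnt7 in brain vessels, 69.02, 58.8 and 85.3 FPKM, its partner Reck 8.84, 7.81 and 8.76 FPKM, and Lrp5 a mean of 27.6 ± 0.269 FPKM. Replicate 3 was above the mean of replicates 1 and 2 in 16 of the 17 Notch and Wnt members with a mean of at least 1 FPKM. This was so for 5378 of all 10206 such genes. The median ratio was 1.08 for the list and 1.01 for all genes.

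G protein-coupled receptors of vasoactive and lipid signals were detected in 23 of 55 cases (41.8%), near the share of all protein-coding genes. S1pr1, the receptor of sphingosine 1-phosphate that tightens junctions, had 230.4, 209.9 and 191 FPKM. F2r, the thrombin receptor PAR1, had 134, 111 and 77.98 FPKM. Adgrf5, an adhesion receptor, had 189.7, 161 and 184 FPKM. These 3 were among the 1000 most abundant genes. Calcrl with Ramp2 and Ramp3 forms the adrenomedullin receptor, and these had means of 4.74 ± 1.18, 11.3 ± 1.59 and 5.18 ± 1.02 FPKM, beside 583 ± 133 FPKM of the ligand Adm. Of the receptors for endothelin, Ednrb had 0.419, 0.544 and 1.04 FPKM and Ednra 0.135, 0.135 and 0.0238 FPKM, beside 354 ± 74.8 FPKM of Edn1. Ednrb passed 1 FPKM in replicate 3 only and Ednra in no library.

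Integrin subunits, the matrix receptors, were detected in 12 of 26 cases (46.2%), near the share of all protein-coding genes. Itgb1, the beta chain common to most of them, had 802, 846 and 1022 FPKM, and the fibronectin receptor chain Itga5 had 174, 226 and 490.1 FPKM. Itga3 had 208, 212 and 282 FPKM and Itga6, a laminin receptor chain, 67.05, 61.4 and 86.6 FPKM. Itgb3 and Itgav, which pair as the vitronectin receptor, had means of 45.9 ± 7.51 and 39.7 ± 3.46 FPKM. Replicate 3 was the highest library in 9 of the 12 members with a mean of at least 1 FPKM and the lowest in the other 3, against highest in 4270 and lowest in 3645 of 10206 genes. Leukocyte chains were at the floor, with Itgal at 0.00563 ± 0.00496 and Itgam at 0.0197 ± 0.03404 FPKM.

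**Figure D3:**
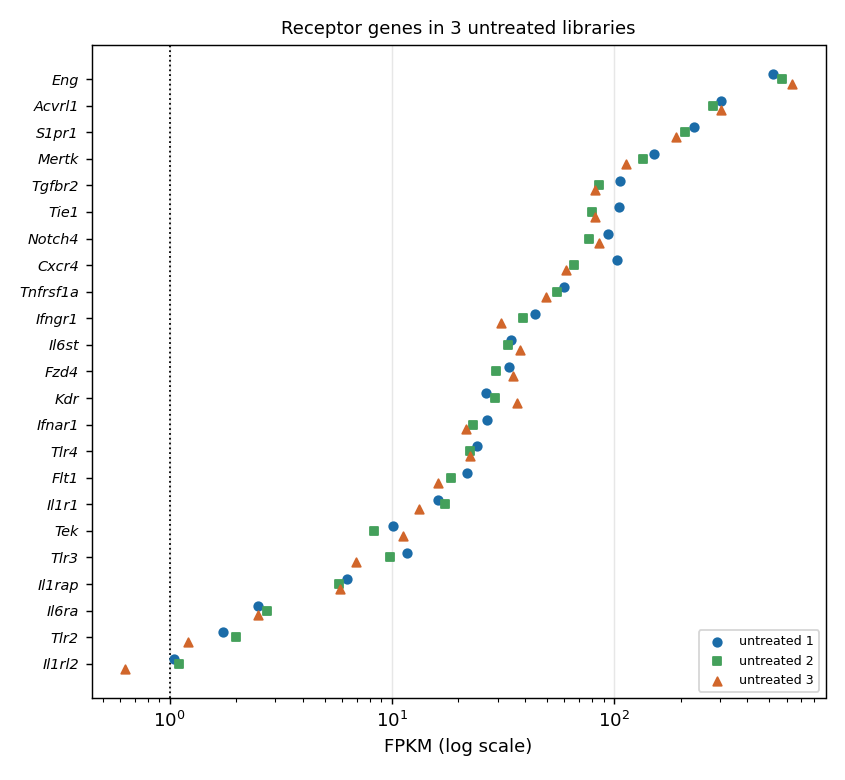
FPKM (log axis) of 23 receptor genes, 1 point per untreated library, with a dotted line at 1 FPKM. Eng is the highest and Il1rl2 the lowest, with replicates 1 and 2 of Il1rl2 just above the line and replicate 3 below it.

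Among 56 transcription factors known from endothelium 42 were detected (75%). Epas1, the hypoxia factor HIF-2 alpha, had 209.8, 198 and 242 FPKM and Hif1a, its relative, a mean of 43.05 ± 1.58 FPKM. Klf6, a zinc finger factor, had 155, 161 and 164 FPKM. Erg, the ETS factor that maintains endothelial identity, had 101, 83.3 and 84.8 FPKM, and Fli1, its nearest relative, 9.93, 8.27 and 9.72 FPKM. Erg was above Fli1 in every library. Of the SoxF factors, Sox18 had 67.8, 56.2 and 70.1 FPKM, Sox17 20.9, 18.6 and 29.8 FPKM and Sox7 a mean of 17.3 ± 2.84 FPKM. Sox17 was highest in replicate 3. Id3, a partner that blocks basic helix-loop-helix factors, had a mean of 75.9 ± 10.8 FPKM and Ets1 42.5 ± 6.99. Etv2, which starts the endothelial lineage in the embryo, had 0 reads. Foxf2, a forkhead factor of brain vessels, had 28.6, 25.99 and 25.8 FPKM.

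The table's own annotation names 1451 transcription factors, without Epas1 and Hif1a, and 644 (44.4%) were detected, close to the share of all protein-coding genes. These families and the members named from them were chosen after their values were seen. By mean, the leading factors of that annotation were Ybx1 (213 ± 6.68 FPKM), Hmga1 (209 ± 8.02), Atf4, a factor of amino acid stress (207 ± 28.4), Maff (188 ± 5.99), Litaf (182 ± 3.67), Klf6 and Rela, a subunit of NF-kappa-B (99.6 ± 3.905), with Erg the eighth. Epas1, outside the annotation, had a mean of 217 ± 22.7 FPKM. Basic leucine zipper factors were detected in 36 of 48 cases (75%) and ETS factors in 16 of 26 (61.5%). Genes that the annotation classes as homeobox were detected in 23 of 229 cases (10.0%). That class counts ceramide synthase genes, among them Cers2, its highest member by mean. None of 40 Hox genes, which mark position along the trunk, was detected, and the highest, Hoxc13, had a mean of 0.441 ± 0.163 FPKM. Lhx6, a homeobox factor, had 31.4, 37.4 and 76.4 FPKM and was highest in replicate 3.

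Markers of the other cell types a brain vessel culture could hold were mostly at or near the floor, with smooth muscle genes as the exception. For pericytes 4 of 15 markers were detected (26.7%), with summed levels of 140.4, 117 and 167 FPKM. Most of the sum was Mcam, which endothelium also expresses (131, 107 and 159 FPKM). Pdgfrb was at the levels given above, Notch3 at 1.74, 1.94 and 0.922 FPKM and Des, the filament desmin, at a mean of 1.51 ± 0.277 FPKM. Rgs5, a defining pericyte marker, had 0.298, 0.315 and 0.243 FPKM, Vtn a mean of 0.0852 ± 0.05 and Kcnj8 0.1 ± 0.157 FPKM, and Higd1b had 0 reads. The sum was lowest in replicate 2 and highest in replicate 3, as Mcam was, and Rgs5, Vtn, Kcnj8 and Higd1b were below 1 FPKM in every library. The part that pericytes had in these values was not tested.

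Smooth muscle genes were detected in 13 of 15 cases (86.7%). Acta2, smooth muscle actin, had 378, 675 and 1323 FPKM and Tagln, transgelin, 8.95, 12.3 and 25.1 FPKM. Both were highest in replicate 3 and lowest in replicate 1, and for Acta2 the mean was 792 ± 483 FPKM with the 3 libraries and 526 FPKM without replicate 3. Smtn, smoothelin, had 67.6, 61.4 and 62.7 FPKM, Tpm2, a tropomyosin, 34.7, 55.1 and 63.8 FPKM and Cnn1, calponin, 23.5, 37.9 and 40.6 FPKM. Myh11, the contractile myosin that defines the lineage, had 6.54, 11.6 and 6.02 FPKM, and Myocd, the factor that drives it, 0.383, 0.446 and 0.466 FPKM. Summed over the list, replicates 1 to 3 had 565, 919 and 1591 FPKM. The part that smooth muscle cells had in this was not tested. Actin genes share stretches of sequence, so a part of Acta2's reads could belong to other actins.

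For fibroblasts 2 of 18 were detected (11.1%), namely Fn1, which endothelium also makes, and Thy1 with 3.52, 6.02 and 1.67 FPKM. Fbln1 had a mean of 1.09 ± 0.163 FPKM and Foxd1, a factor of meningeal and stromal cells, 0.5901 ± 0.0723. The defining collagen gene Col1a1 had 0.235, 0.211 and 0.386 FPKM and Col1a2 0.0892, 0.143 and 0.597 FPKM, below 1 in every library. Pdgfra had a mean of 0.206 ± 0.0394 FPKM and Dcn 0.06804 ± 0.0159, and Lum, Dpt and Slc47a1 had 0 reads.

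Of astrocyte markers 1 of 12 was detected (8.33%), Gja1 with 3.76, 2.85 and 3.37 FPKM, a connexin that endothelium also expresses. Sox9 had a mean of 0.962 ± 0.192 FPKM, Aldh1l1 0.943 ± 0.482 and Slc4a4 0.6798 ± 0.115. Gfap, the astrocyte filament, had 0.117, 0.0351 and 0 FPKM, and Aqp4, Slc1a3 and Ntsr2 had 0 reads. The list summed to 7.396, 5.91 and 5.33 FPKM. For the oligodendrocyte lineage 2 of 14 were detected (14.3%). Cnp, an enzyme many cells express, had 11.5, 9.82 and 11.8 FPKM. Cspg4, which pericytes share, had 1.22, 1.63 and 1.303 FPKM. Pdgfra and Gpr17 were below 1 FPKM. Mbp, the myelin basic protein, had 0.0366, 0.0999 and 0.0619 FPKM, and Mobp, Cldn11, Olig2, Sox10 and Ermn had 0 reads, with a sum over the list of 13.4, 12.1 and 13.6 FPKM.

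Of neuron markers 2 of 14 were detected (14.3%). Tubb3, a tubulin, had 5.47, 5.15 and 13.4 FPKM and Syn1, synapsin, 2.63, 2.71 and 6.72 FPKM. Stmn2 and Map2 had means of 1.12 ± 0.426 and 1.01 ± 0.788 FPKM. Rbfox3, the nuclear protein NeuN, had 0.127, 0.0594 and 0.134 FPKM and Snap25 had 0 reads, and the list summed to 11.97, 12.2 and 22.7 FPKM. Tubb3 and Syn1 were highest in replicate 3. Without replicate 3 the count of detected markers was 4 for neurons and 2 for astrocytes. For microglia and macrophages 2 of 18 were detected (11.1%), among them the lysosomal gene Cd68 (6.81, 7.15 and 7.66 FPKM), which other cells also express. Lyz2 and Mrc1 had means of 0.743 ± 0.0482 and 0.148 ± 0.0677 FPKM. Cx3cr1 had 0.041, 0 and 0 FPKM and Ptprc, the leukocyte antigen CD45, 0.0202, 0.0108 and 0 FPKM, and C1qa, C1qb, C1qc, Tyrobp, Fcer1g, Ly86 and Adgre1 had 0 reads. The sum over that list was 46.4, 50.03 and 46.6 FPKM, of which Cd68 made up the smaller part.

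Of lymphocyte and neutrophil markers 0 of 16 and of erythroid and platelet markers 0 of 10 were detected. Cd79a, S100a8, Cd2 and Ly6g had means of 0.161 ± 0.197, 0.0887 ± 0.154, 0.0425 ± 0.0374 and 0.0349 ± 0.0605 FPKM. Cd3e, Cd3d, Cd3g, Cd4, Cd8a, Ms4a1, Nkg7, Gzmb and S100a9 had 0 reads, as did the 4 globin genes Hba-a1, Hba-a2, Hbb-bs and Hbb-bt and the platelet gene Gp1bb. Itga2b, Pf4 and Ppbp had means of 0.347 ± 0.1702, 0.233 ± 0.133 and 0.0645 ± 0.0687 FPKM. On the list of epithelium, ependyma and choroid plexus 2 of 13 were detected (15.4%). Clic6, a chloride channel relative of choroid plexus, had 73.5, 49.3 and 42.8 FPKM and Krt19, a keratin, 11.4, 15.8 and 15.3 FPKM. Tmem212 had a mean of 0.338 ± 0.126 and Krt18 of 0.232 ± 0.0962 FPKM, and the defining genes Epcam, Ttr and Otx2 had 0 reads. Clic6 was thus present in each library beside 0 reads of Ttr, the most abundant product of the choroid plexus.

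**Figure D4:**
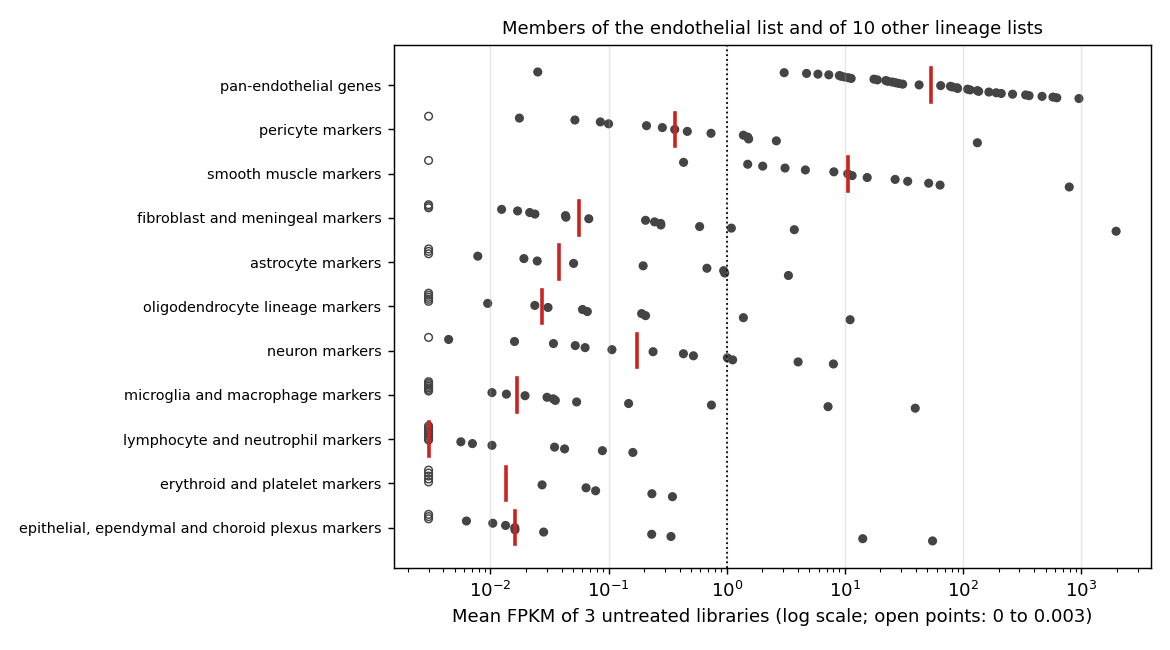
Mean FPKM over 3 untreated libraries (log axis) of each member of the pan-endothelial list and of 10 lists of other lineages; red bars are list medians, open points lie between 0 and 0.003, and the dotted line is at 1 FPKM. The endothelial median is 53.6 FPKM and the smooth muscle median 10.6 FPKM, while the other 9 medians lie below 1 FPKM.

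Basement membrane and matrix genes were detected in 35 of 38 cases (92.1%), with a median of 41.5 FPKM. After Fn1, Thbs1 and Sparc came the chains of collagen IV, the net of the basement membrane, with 674, 655 and 872 FPKM for Col4a1 and 513, 481 and 597 FPKM for Col4a2. Both were highest in replicate 3. Serpinh1, the collagen chaperone, had 301, 296 and 405 FPKM. Lama4 and Lama5, the laminin alpha chains of vessels, had means of 54.5 ± 5.18 and 11.98 ± 2.04 FPKM. Lama2, the alpha chain that mural and glial cells make, was at 0.1596 ± 0.0511 FPKM.

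Clotting and vessel tone genes were detected in 19 of 23 cases (82.6%). Anxa2, a calcium-dependent membrane-binding protein, had 452, 510.0 and 489 FPKM, and Ptgs2, the inducible cyclooxygenase, 248, 281 and 248 FPKM. Procr, the protein C receptor, had 179, 206 and 183 FPKM, S100a10, the partner of Anxa2, a mean of 151 ± 16.4 and F2r 108 ± 28.04 FPKM. Thbd, thrombomodulin, which restrains clotting, had 43.1, 47.2 and 50.7 FPKM, and F3, tissue factor, which starts it, had 49.6, 74.4 and 41.8 FPKM. The ranges of Thbd and F3 overlapped. Nos3, the endothelial nitric oxide synthase, had 18.6, 13.5 and 20.8 FPKM.

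Genes of leukocyte traffic were detected in 14 of 29 cases (48.3%), near the share of all protein-coding genes. Ccl2, the monocyte chemokine, had 423, 353 and 144 FPKM without added IL-36β. Icam1, a leukocyte ligand of inflamed endothelium, had 63.7, 63.8 and 42.6 FPKM, and Vcam1, another such ligand, 60.9, 51.9 and 26.3 FPKM. All 3 were lowest in replicate 3. Icam2, which endothelium carries at rest, had 85.9, 79.1 and 69.6 FPKM, and Csf1, the macrophage growth factor, 109, 132 and 123 FPKM. Sele, E-selectin, was at 1.16, 1.27 and 0.759 FPKM and Selp, P-selectin, at 0.01395, 0.0112 and 0.0295 FPKM.

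Interferon-stimulated genes were detected in 30 of 35 cases (85.7%). Ifitm3, a membrane block to virus entry, had 317, 289 and 205 FPKM, Bst2, tetherin, 162, 184 and 137 FPKM and Ifi27 109.7, 127 and 107 FPKM. Isg15, a ubiquitin-like modifier, had 37.3, 35.2 and 17.2 FPKM, Ifitm2 a mean of 60.5 ± 2.596 and the RNA sensor Ddx58 19.9 ± 3.41 FPKM. Replicate 3 was lowest of the 3 libraries in 29 of the 30 members with a mean of at least 1 FPKM, against 3645 of 10206 genes.

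Glycolysis genes, with a median of 50.1 FPKM, were detected in 18 of 20 cases (90%), and 10 were among the 1000 most abundant genes. Pgk1 had 599, 701 and 433 FPKM, Pkm 491, 530.5 and 344 FPKM, Aldoa 461, 522 and 305 FPKM, Eno1 337, 392 and 228 FPKM and Ldha 353, 421 and 173 FPKM. All were lowest in replicate 3. Gapdh was listed at 30.5, 25.2 and 1.04 FPKM, but this gene has many near-identical copies in the mouse genome. How their reads were counted is not known here, so its level is uncertain.

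Cell cycle genes were detected in 27 of 30 cases (90%) at a median of 3.397 FPKM. Ccnd1, cyclin D1, had 278, 274 and 295 FPKM. Ccnd2 had a mean of 44.2 ± 5.38 FPKM, Pcna, the replication clamp, 33.8 ± 4.903, Ccnd3 22.1 ± 1.399, Rrm2 18.02 ± 4.25 and Mcm3 14.1 ± 2.39. Mki67, which marks cycling cells, had 2.81, 3.08 and 2.03 FPKM and Top2a, a topoisomerase of dividing cells, 2.82, 3.63 and 2.59 FPKM. Mki67 and Top2a passed 1 FPKM in each library and overlapped with each other.

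How far the libraries spread was measured in the 4419 genes with a mean of at least 10 FPKM and at least 10 reads in each library. The highest library was at the median 1.16-fold above the lowest, and in 108 genes (2.44%) it was at least 2-fold above it. In 106 of these 108 genes replicate 3 was the highest (37) or the lowest (69) library. Replicate 1 was the highest in 40 and the lowest in 35 of them, and replicate 2 in 31 and 4. With 3 libraries, each is often the highest or the lowest. Over the 10206 genes with a mean of at least 1 FPKM, replicate 3 was the highest in 4270 and the lowest in 3645. Replicates 1 and 2 were at least 2-fold apart in 2 genes, against 94 for replicates 1 and 3 and 67 for replicates 2 and 3.

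The 10 genes with the largest ratio were all lowest in replicate 3. Besides Gapdh they included Cxcl2, a chemokine for neutrophils, with 27.6, 19.6 and 1.384 FPKM, and Cxcl1, its close relative, with 38.5, 24.4 and 2.08 FPKM. Lcn2, the iron-binding lipocalin, had 37.3, 32.2 and 5.01 FPKM. Slc16a3, the lactate exporter MCT4, had 20.9, 20.8 and 2.38 FPKM, Egln3, an oxygen-sensing hydroxylase, 32.4, 32.6 and 4.45 FPKM and Ak4, a mitochondrial adenylate kinase, 20.6, 20.9 and 3.88 FPKM. In Cxcl2, Cxcl1, Lcn2, Slc16a3, Egln3 and Ak4 the highest library was 19.9, 18.5, 7.45, 8.76, 7.33 and 5.39 times the lowest. Lox, which crosslinks collagen, had 41.2, 56.3 and 8.004 FPKM, Kcne3 the values given above and Fmo2, a monooxygenase, 15.7, 21.99 and 3.2 FPKM.

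By list, replicate 3 was set against the mean of replicates 1 and 2 on a log2(FPKM + 0.5) scale, over members with a mean of at least 1 FPKM. Over all 10206 such genes the median ratio was 1.01, with 4828 genes lower and 5378 higher in replicate 3. For glycolysis genes it was 0.584, with 19 of 19 lower, and for interferon-stimulated genes 0.586, with 29 of 30 lower. For leukocyte adhesion and chemokine genes the median ratio was 0.739 (16 of 18 lower), and for proliferation genes 0.841 (24 of 28 lower). Chemokine receptors were at 0.723 (3 of 3 lower) and Toll-like receptors at 0.734 (5 of 6 lower). Venous genes were at 0.797 (8 of 13 lower) and tip cell and angiogenic genes at 0.804 (14 of 19 lower). Integrin subunits were at 1.29, with 9 of 12 higher. Pan-endothelial genes were at 0.958, with 20 of 37 lower, and tight junction genes at 0.982, with 11 of 20 lower. None in either list was past 2-fold. Of all 10206 genes only 125 were at least 2-fold lower and 37 at least 2-fold higher in replicate 3. For lists of this size, none past 2-fold is thus near the share of all genes.

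**Figure D5:**
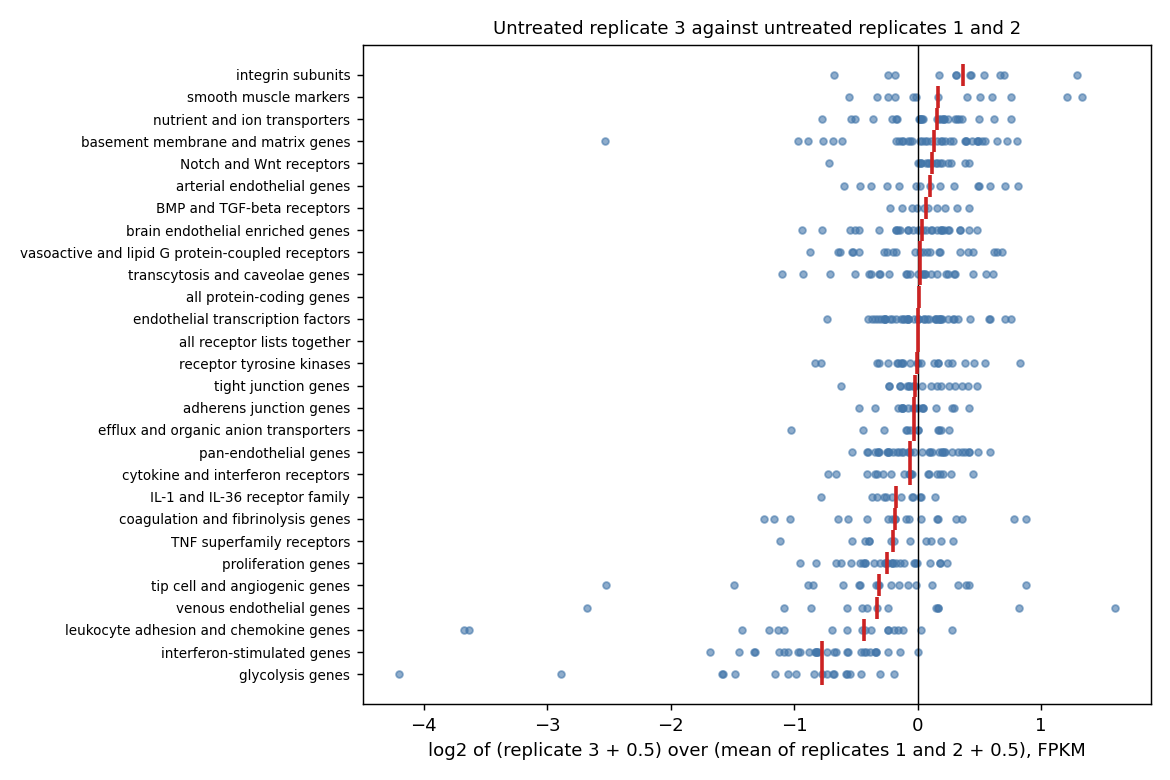
Log2 ratio of untreated replicate 3 to the mean of replicates 1 and 2 (FPKM + 0.5) for list members with a mean of at least 1 FPKM. Lists are ordered by their median (red bar). Lists with fewer than 10 such members, among them chemokine and Toll-like receptors, are not drawn. The medians of glycolysis and interferon-stimulated genes lie furthest to the left, and that of integrin subunits furthest to the right.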

How the data were processed

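Poly(A) RNA of cultured mouse BMVECs was sequenced from stranded libraries, per the labels' protocols. Per the submitters' processing notes, the build was GRCm38 and the tools were HISAT2 2.05 and featureCounts 1.50-p3, besides fastp, DESeq2 1.38.3 and StringTie; their roles are not stated. Whether counting used the strand, or how it treated reads of near-identical copies, is likewise not given in the sources used here. For each gene and library the authors deposited FPKM, with gene coordinates, length, biotype and transcription factor family. The authors also deposited counts for 660 genes. Columns were matched to samples by library name, and 8 columns were left out because their 4 libraries match no sample.

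FPKM times gene length, divided by a constant per library, gave whole reads in 100% of values (within 0.01), equal to the deposited counts in all 660 genes. The recovery was also run on simulated reads that had been turned into FPKM by the same formula. That run checks the code only, and not how the authors made their FPKM. The reads served for depth, floors and zero counts. Nothing was tested between groups.

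Members, 38 gene lists and the naming rule were chosen with earlier results of these data known. Of 839 listed symbols 835 were in the table, 6 of them under an older symbol. By the rule, the text names the 20 most abundant nuclear genes, up to 6 top members per list (4 and those at 0 reads for other lineages), the 10 genes with the widest spread and a set of fixed genes, among them Cdh5, Pecam1, Cldn5, Tek and Il1rl2; any other gene was picked with its values in view. Some genes that this rule names are not reported here. Tables were made with Python 3.11.15, pandas 2.3.3 and numpy 2.4.6. Alternatives to the detection threshold, the scaling and the set of libraries were tried.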

Additional observations from a re-analysis of the deposited data

How the results depend on the processing

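The count of detected protein-coding genes was 10714 at a threshold of 0.5 FPKM, 8684 at 2 FPKM and 11807 with at least 10 reads in each library. It was 10206 with a mean of at least 1 FPKM, 11376 with at least 1 TPM in each library and 9920 to 10067 when 1 library was left out. At least 1 TPM was a looser threshold than 1 FPKM. Protein-coding FPKM summed to 258264, 260930 and 265259 in replicates 1, 2 and 3, less than the fixed total of a TPM scale. Mean levels moved between 900.4 and 985 FPKM for Cdh5, 327 and 390 for Pecam1, 145 and 163 for Cldn5 and 9.24 and 10.7 for Tek over rescaling, the median and the sets without 1 library. Of 333 values under an alternative, 18 moved by more than the limit set for them, and these were counts of detected members in 6 lists of other lineages. For the levels of Cdh5, Pecam1, Cldn5 and Tek the limit was the SD between the same libraries. With so few libraries, neither the median nor leaving 1 library out can shift a mean by that much. Those level values could not be counted as moved, so the tally does not test how stable these levels are. With at least 10 reads in each library in place of 1 FPKM, 9 pericyte, 8 fibroblast, 5 astrocyte and 7 neuron markers passed. Depth limits statements about low genes: 0 reads allow up to 0.148 to 0.195 FPKM at 1 kb. Apart from depth, genes near 1 FPKM, such as Il1rl2 and Lrp1, passed or missed the threshold by library. Mfsd2a passed it in each library, though narrowly in replicates 1 and 3.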

Other observations

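The gene families below were chosen after their values were seen, and each count stands beside the 44.7% of all protein-coding genes that were detected. Potassium channel genes were detected in 8 of 92 cases (8.70%). Kcnf1, a silent subunit that modifies other channels, had 35.3, 32.3 and 46.3 FPKM in untreated replicates 1, 2 and 3, and Kcnq1, a voltage-gated channel, had 11.4, 8.298 and 13.95 FPKM. Both exceeded 1 FPKM in each library. Of the mechanosensitive Piezo channels, Piezo1, known from endothelial flow sensing, had 57.8, 48.3 and 62.2 FPKM and Piezo2, known from sensory nerves, 0.279, 0.186 and 0.0804 FPKM. Every Piezo1 library lay above every Piezo2 library.

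Connexins were detected in 3 of 20 cases, led by Gja1. Gja4, a connexin of arterial endothelium, had 1.97, 1.55 and 1.93 FPKM, and Gja5, another, 0.664, 0.318 and 1.97 FPKM. Gja5 passed 1 FPKM in replicate 3 only. Of 49 keratins 2 were detected, Krt19 and Krt20, an intestinal keratin with 6.55, 9.402 and 14.2 FPKM. Sema7a, a membrane-bound semaphorin, had 195, 146 and 135 FPKM and was the highest of 20 semaphorins. None of the 4 classical MHC class II chains was detected. H2-Ab1 had 1.204, 1.72 and 0.238 FPKM, above 1 FPKM in replicates 1 and 2 and below it in replicate 3.

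Genes of the Y chromosome were read in each library, a check chosen after its values were seen. Ddx3y had 21.3, 19.7 and 19.1 FPKM and Eif2s3y 9.56, 10.2 and 7.86 FPKM, so each of the 3 libraries held RNA of cells from male mice.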
